A study of Mus musculus with 24 samples.

Results

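The genes described are those that encode the chains of collagens and laminins, 55 of the 55341 genes in a table of read counts. They were taken by symbol: every gene named Col, a number, a and a number, or Lam, a letter from a to c and a digit. There were 44 collagen genes and 11 laminin genes, among them 11 fibrillar collagens, 6 type IV, 6 type VI and 21 other collagens, and 5 alpha, 3 beta and 3 gamma chains of laminin. The rule used no measured value, but these genes were chosen with earlier results of these data known.

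The RNA came from 3134 cells, a mouse line labelled as mammary adenocarcinoma, in 24 libraries that form 12 groups of 2. All cells, the controls included, carried a hairpin RNA against NIPBL (shNIPBL) that IPTG switches on, and a piggyBac construct: EV (an empty vector), NIPBL WT (wild type), or 1 of the NIPBL mutants named C1, C2 and C1-C2, whose changes the labels do not define. Cells were cultured for 3 days in serum stripped with charcoal. Empty-vector cells were measured without IPTG and with 1 mM IPTG, and cells of the other constructs with IPTG only, each after 2 hours of ethanol or of 100 nM dexamethasone, a synthetic ligand of the glucocorticoid receptor. No group had IPTG without the hairpin, so loss of NIPBL and any effect of IPTG or of the hairpin itself cannot be told apart. The series calls the replicates biological and does not say whether each came from its own culture. The p-values therefore reflect the spread between libraries, which may be technical. For replicate 2 of C1-C2 in ethanol the title says ethanol and the treatment label says dexamethasone. It was grouped by its title, and 2 genes that responded to the hormone lay at ethanol levels in it: Col27a1 at 0.574 CPM and Col4a1 at 1188 CPM.

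Collagens are proteins of the extracellular matrix whose chains wind around each other in a helix. The fibrillar collagens assemble into the fibres of connective tissue, type IV collagen forms the sheet of basement membranes, and type VI forms beaded filaments between fibres and cells. Laminins are cross-shaped trimers of an alpha, a beta and a gamma chain and are, with type IV collagen, the main protein of basement membranes, to which mammary epithelium is anchored. NIPBL loads the cohesin ring onto DNA, where cohesin extrudes loops that bring enhancers near promoters.

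Total counts ran from 32.5 to 42.7 M in the ethanol libraries and from 45.0 to 72.9 M in the dexamethasone libraries. Levels are CPM, counts scaled to library size with TMM factors, and, to compare genes, the same per kilobase of exon (RPKM). Nipbl lay at 181 ± 6.57 CPM without IPTG and 63.8 ± 1.75 CPM with IPTG, both in ethanol with the empty vector (SD, n = 2; edgeR adjusted p = 1.39e-08), and at 153 ± 2.07 against 55.5 ± 1.48 CPM in dexamethasone (SD, n = 2; edgeR adjusted p = 1.01e-08). It did not pass the test in wild-type NIPBL against empty-vector cells (edgeR adjusted p = 0.448). Whether reads from the NIPBL constructs are counted in Nipbl was not tested, so this does not measure their expression. Although the cells are labelled as mammary adenocarcinoma, defining markers of luminal mammary epithelium were at or near 0: Epcam, Cldn3 and Cldn7 had 0 counts in all 24 libraries, 1 of the 8 listed luminal genes passed the filter on low counts, and their summed level was 0.474 to 0.902 CPM. Of the 11 mesenchymal or fibroblast genes listed, 9 passed, with a summed level of 3894 to 4984 CPM that was mostly Vim. Endothelial genes summed to at most 0.497 CPM and adipocyte genes to at most 0.334 CPM. Of the 5 immune genes, Cd68 alone passed the filter (7.52 to 11.4 CPM) and Ptprc reached at most 2 counts.

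Of the 55 genes, 33 passed the filter on low counts, 24 collagens and 9 laminins, and 27 had a mean of at least 1 CPM. All collagen and laminin genes together took 0.684% to 0.859% of the counts of a library, and the 5 of highest CPM carried 68.1% of that. The other 22 genes had at most 18 counts in any library and were not tested. They were the fibrillar Col2a1, Col3a1, Col11a1 and Col24a1; the type IV genes Col4a3 and Col4a4; the type VI genes Col6a5 and Col6a6; Col8a2, Col9a1, Col9a2, Col10a1, Col13a1, Col14a1, Col15a1, Col19a1, Col23a1, Col25a1, Col26a1 and Col28a1 among the other collagens; and the laminin alpha chains Lama2 and Lama4. Of these, Col6a6, Col13a1, Col19a1 and Col25a1 had 0 counts in all 24 libraries.

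Per length, the basement membrane collagen genes Col4a1 and Col4a2 had the highest means, 190 ± 35.6 and 138 ± 24.5 RPKM (SD, n = 24). By CPM, without length, Col1a2 had the highest mean (1620 CPM), beside 1420 CPM for Col4a1 and 911 CPM for Col4a2. The length is that of all exons in the count table, 12426 bases for Col1a2 and 7464 for Col4a1. The order of genes and the class sums depend on it. Col1a2, the alpha 2 chain of type I collagen, had the next highest mean per length, 130 ± 9.79 RPKM. Each SD here spans all 12 groups, so it includes differences between treatments. Per length, Col1a2 lay above Col4a2 in the ethanol libraries with IPTG and below it in all other libraries. Col18a1, a basement membrane collagen that carries heparan sulfate and releases endostatin, lay at 69.9 ± 5.15 RPKM, and Col6a3, the large chain of type VI collagen, at 66.1 ± 11.3 RPKM. The order of Col18a1 and Col6a3 varied between libraries. The laminin genes followed in the order Lamc1 (54.9 ± 6.81 RPKM), Lama5 (40.3 ± 5.86 RPKM) and Lamb2 (31.6 ± 2.79 RPKM), which encode the gamma 1, alpha 5 and beta 2 chains, and then came Col6a1 (29.5 ± 9.37 RPKM) and Col4a5 (29.3 ± 3.05 RPKM), each SD with n = 24. Summed over the genes of a class, type IV collagen reached 372 RPKM, fibrillar collagen 181 RPKM, the collagens outside types IV and VI and the fibrillar class 106 RPKM and type VI 97.4 RPKM. The laminin beta chains summed to 49.2 RPKM and the alpha chains to 40.4 RPKM, both below Lamc1 alone. In the plot of levels by class, 17 genes formed an upper band above 10 RPKM and Col6a2, Col7a1 and Lamb3 lay between 1 and 4 RPKM.

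**Figure D1:**
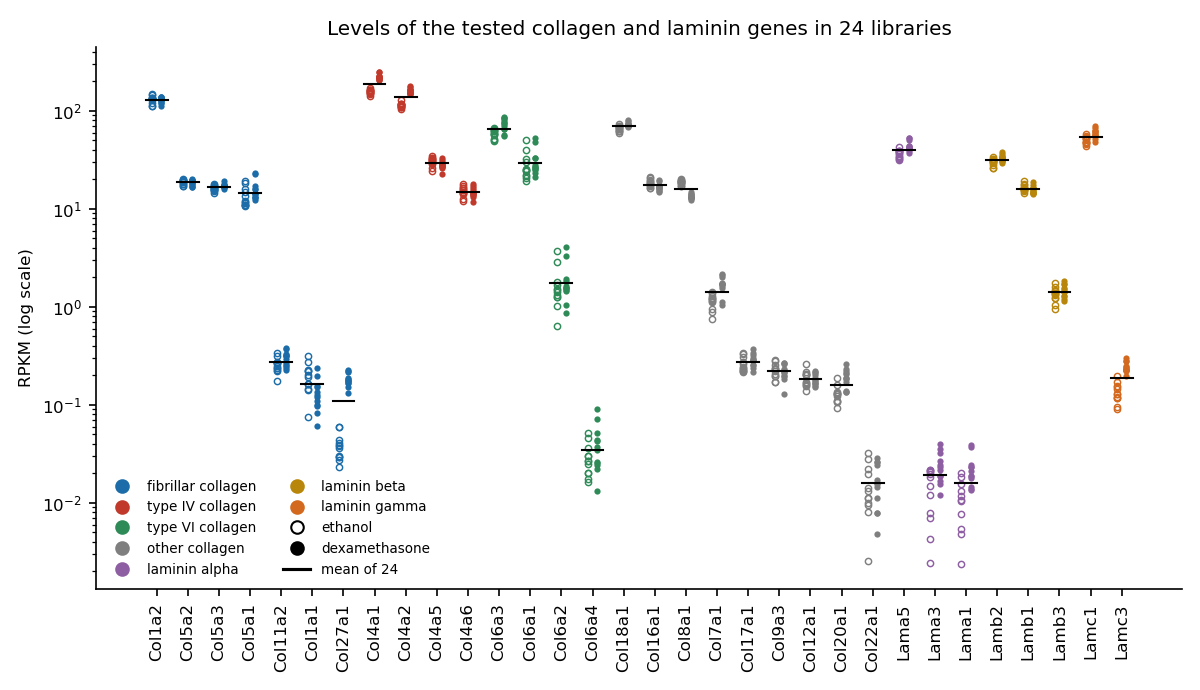
RPKM on a log axis for tested collagen and laminin genes in each of the 24 libraries, coloured by class, with open circles for ethanol, filled circles for dexamethasone and a line at the mean; a library at 0 is not drawn. Col4a1, Col4a2 and Col1a2 lie above 100 RPKM, and Col1a1 lies near 0.163 RPKM.

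RNA per exon length was not equal for chains that assemble together. These ratios depend on the exon lengths of the count table, for example 4380 bases for Col6a1 and 8326 for Col6a2. Type I collagen is normally built of alpha 1 and alpha 2 chains, and the ratio of Col1a2 to Col1a1 per length ran from 424 to 1998 over the 24 libraries, with Col1a1 at 0.163 ± 0.0643 RPKM (SD, n = 24). Col4a1 and Col4a2, whose products share a trimer, kept a ratio of 1.30 to 1.44 in every library, although both moved with the hormone. Col4a5 and Col4a6, a pair of type IV chains, kept 1.82 to 2.14. In type VI collagen the ratio of Col6a1 to Col6a2 ran from 12.8 to 29.7 and that of Col6a3 to Col6a2 from 15.6 to 96.2. Among laminins, Lamb1 and Lamb2 encode alternative beta chains, which do not share a trimer, and Lamb1 over Lamb2 stayed between 0.459 and 0.616. Lama3, the alpha chain that joins Lamb3 in a trimer, was at 0.0191 RPKM, against 1.41 RPKM for Lamb3.

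Several of these genes are neighbours on a chromosome (GENCODE vM21, GRCm38/mm10). Col4a1 (chromosome 8, 11198423 to 11312826, minus strand) and Col4a2 (11312805 to 11449287, plus strand) stand head to head and their first exons share 22 bases, shown because reads there could be given to either gene and the strand setting of the counting is not given in the sources used here:
Col4a1 and Col4a2, chr8:11312805-11312826, plus strand, GRCm38.p6: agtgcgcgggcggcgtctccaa
Col6a2 and Col6a1 lie on the same strand of chromosome 10 with 85161 bases between them. The nearly silent pair Col4a3 and Col4a4 stands head to head with 71 bases between the genes. In the 250 bases before their RefSeq starts (GRCm38.p6), 40 of the 55 genes could be matched. The GC box GGGCGG, on either strand, was in 23 of these (57.5%), against 32.7% of all 32851 promoters, and CCAAT was in 14 (35%, against 33.8%). The palindromic glucocorticoid response element (AGAACA, 3 free bases and TGTTCT) was in 0 of them, against 0.00913% of all promoters, and its arm AGAACA, on either strand and so including the palindrome, in 3 (7.5%, against 16.1%). No match says only that these letters are not in this window. Shares of the 40 genes count each gene once, and shares of all promoters count each promoter, of genes expressed here or not. Of the 33 tested genes, 23 could be matched. The stretch shared by Col4a1 and Col4a2, shown above, also holds GGGCGG, left in lower case.

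After knockdown of Nipbl in ethanol, chains of type VI and type V collagen and the laminin beta 1 and gamma 1 chains were lower, and chains of type I and type VII collagen were higher. Of the 33 tested genes, 11 were called at an edgeR adjusted p under 0.05, 5 higher and 6 lower, which is 33.3% against 13.4% of all 16934 genes tested (7.16% higher and 6.24% lower). The count was 5 without replicate 1 of the cells without IPTG and 6 without either replicate with IPTG. In dexamethasone 13 were called, 4 higher and 9 lower, which is 39.4% against 16.9% of all genes (8.36% higher and 8.49% lower). The median log2 difference of the 33 genes was -0.12 in ethanol and -0.18 in dexamethasone, beside -0.01 and 0.00 over all genes. Both comparisons set empty-vector cells with IPTG against those without, and in these bulk samples fewer cells that express a gene and less RNA per cell cannot be told apart. The summed level of the basal or myoepithelial markers (7 listed, 2 tested, nearly all Krt14, with Krt5 at no more than 2 counts) was also lower with IPTG, at 14.4 to 14.9 against 17.8 to 19.7 CPM in ethanol and 15.4 to 16.0 against 20.1 to 21.5 CPM in dexamethasone. Its part in the results was not tested.

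Type VI collagen held the largest falls. Col6a1 (chromosome 10, 76708792 to 76726168), one of the short chains that join Col6a3 in the trimer, was at 174 and 222 CPM without IPTG and at 98.2 and 106 CPM with IPTG in ethanol, and at 211 and 231 against 110.1 and 115 CPM in dexamethasone. Col6a2 (chromosome 10, 76595762 to 76623630), the other short chain, was at 23.9 and 31.0 CPM without IPTG and at 10.6 and 11.9 CPM with IPTG in ethanol, and at 27.8 and 34.3 against 12.02 and 13.1 CPM in dexamethasone. For both genes the groups did not overlap in either treatment, and replicate 2 without IPTG was the higher library each time. The log2 difference of Col6a1 was -0.95 ± 0.14 (SE) in ethanol (edgeR adjusted p = 0.000352) and -0.97 ± 0.14 in dexamethasone (edgeR adjusted p = 0.000197), and that of Col6a2 was -1.29 ± 0.15 (edgeR adjusted p = 1.38e-05) and -1.30 ± 0.14 (edgeR adjusted p = 4.6e-06). Every one of these calls was kept with any 1 of the libraries compared left out. Col6a3, the third chain, was at 808 and 693 CPM without IPTG and 601 and 686 CPM with IPTG in ethanol, groups that did not overlap, and its log2 difference of -0.22 ± 0.17 did not pass (edgeR adjusted p = 0.455). In dexamethasone it was -0.38 ± 0.17 (edgeR adjusted p = 0.148). The letters before the starts of the 2 genes that fell are shown for comparison, leaving out annotated exons, with a GC box (here as CCGCCC, its reverse complement) in capitals:
Col6a2, chr10:76623631-76623880, minus strand, GRCm38.p6: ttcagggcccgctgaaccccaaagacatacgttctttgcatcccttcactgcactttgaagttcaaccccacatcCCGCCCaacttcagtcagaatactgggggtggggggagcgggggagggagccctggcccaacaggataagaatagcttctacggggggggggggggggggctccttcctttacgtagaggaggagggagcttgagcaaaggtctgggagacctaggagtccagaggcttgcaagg
Col6a1, chr10:76726169-76726294, minus strand, GRCm38.p6: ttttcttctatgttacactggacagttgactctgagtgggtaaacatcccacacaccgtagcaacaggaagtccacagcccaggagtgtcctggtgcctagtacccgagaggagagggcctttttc
The Col6a2 stretch holds 1 GC box in 250 bases and the Col6a1 stretch 0 in 126 bases.

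Fibrillar collagens moved in both directions. Col5a1 (chromosome 2, 27886425 to 28039514), the type V chain that starts type I fibrils, was at 155 and 164 CPM without IPTG and 93.7 and 115 CPM with IPTG in ethanol, and at 192 and 199 against 119 and 122 CPM in dexamethasone, without overlap. Its log2 difference was -0.61 ± 0.07 (SE; edgeR adjusted p = 8.07e-07) in ethanol and -0.70 ± 0.07 (edgeR adjusted p = 5.51e-08) in dexamethasone, and both calls were kept with any 1 library left out. The other type V chains were not called: Col5a2 differed by 0.07 ± 0.07 in ethanol (edgeR adjusted p = 0.631) and Col5a3 by -0.12 ± 0.06 (edgeR adjusted p = 0.188). Per length, Col5a2 over Col5a1 ran from 0.764 to 1.81 over the libraries. Exons of Col5a1 overlap those of 2 genes on the other strand, 2810430I11Rik and Gm13372, by 99 and 113 bases.

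Both type I chains were higher after knockdown in ethanol. Col1a2 (chromosome 6, 4504814 to 4541544) was at 1387 and 1390 CPM without IPTG and 1646 and 1798 CPM with IPTG, a log2 difference of 0.31 ± 0.08 (SE; edgeR adjusted p = 0.00669), and in dexamethasone the difference of 0.19 ± 0.08 did not pass (edgeR adjusted p = 0.0877). Its call in ethanol was lost without replicate 1 of the cells without IPTG or without replicate 2 of those with IPTG. Col1a1 (chromosome 11, 94936224 to 94953042) is nearly silent here, at 0.490 and 1.08 CPM without IPTG and 2.05 and 1.47 CPM with IPTG in ethanol, and at 0.400 and 0.544 against 1.56 and 1.03 CPM in dexamethasone. As sums of reads these were 58 against 130 counts, 2.37 times as many per library size (95% exact binomial interval 1.73 to 3.29), and 48 against 128 counts, 2.69 times as many (1.92 to 3.84). Intervals of this kind hold for counting error alone. The log2 differences were 1.21 ± 0.32 (edgeR adjusted p = 0.012) and 1.43 ± 0.33 (edgeR adjusted p = 0.00325). The call in ethanol was lost without replicate 1 of either group and the call in dexamethasone without replicate 1 of the cells with IPTG.

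Among type IV collagens no gene was called in ethanol, where the log2 differences of the 4 tested genes ran from -0.22 to -0.10. In dexamethasone Col4a1 was at 1882 and 1859 CPM without IPTG and 1554 and 1548 CPM with IPTG, and Col4a2 at 1159 and 1185 against 976 and 989.8 CPM. Both groups of libraries were apart, with log2 differences of -0.27 ± 0.05 (SE; edgeR adjusted p = 0.00062) for Col4a1 and -0.25 ± 0.05 (edgeR adjusted p = 0.000992) for Col4a2. Both calls were kept with any 1 library left out. The X-linked pair differed by -0.19 ± 0.09 for Col4a5 (edgeR adjusted p = 0.176) and by -0.28 ± 0.10 for Col4a6 (edgeR adjusted p = 0.07) and was not called.

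Of the 9 other collagens tested, Col7a1 (chromosome 9, 108953586 to 108984875), which forms the anchoring fibrils beneath basement membranes, was higher in both treatments. It was at 7.73 and 9.05 CPM without IPTG and 12 and 12.3 CPM with IPTG in ethanol, and at 10.7 and 11.4 against 17.9 and 22.2 CPM in dexamethasone. The groups did not overlap, and the log2 differences were 0.54 ± 0.16 (SE; edgeR adjusted p = 0.0327) and 0.86 ± 0.14 (edgeR adjusted p = 0.000377). The call in ethanol was lost with any of the 4 libraries left out and with the trend in GC content removed (0.48, edgeR adjusted p = 0.0937), and the call in dexamethasone was kept in all of these. Exons of the microRNA gene Mir711 overlap Col7a1 on the same strand by 36 bases. Col12a1, a collagen that sits on the surface of fibrils, was at 3.08 and 4.03 CPM without IPTG and 2.63 and 2.10 CPM with IPTG in ethanol, a log2 difference of -0.57 ± 0.18 (edgeR adjusted p = 0.0332) that was not called with DESeq2, in a fit of only the libraries compared or without replicate 2 of either group. In dexamethasone alone Col16a1, another fibril-associated collagen, fell by 0.23 ± 0.06 (edgeR adjusted p = 0.00822) and Col18a1 by 0.18 ± 0.05 (edgeR adjusted p = 0.0237), calls lost without replicate 1 of either group for Col16a1 and with any 1 library left out for Col18a1. Whether these differences depend on the treatment was tested as a difference of responses, given below. Col22a1, named although its mean of 0.147 CPM is under the minimum of 1 CPM for named genes, had 18 counts with IPTG and 4 without in ethanol (ratio 4.76, 95% exact binomial interval 1.57 to 19.3) and 24 against 6 in dexamethasone (ratio 4.04, 1.61 to 12.1). Its calls were lost with 3 of the 4 libraries left out in turn in ethanol and with each of the 4 in dexamethasone.

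Lamc1 (chromosome 1, 153218922 to 153332786), the gamma 1 chain of most laminins, was at 476 and 439 CPM without IPTG and 378 and 395 CPM with IPTG in ethanol, and at 558 and 579 against 428 and 401 CPM in dexamethasone. In ethanol its log2 difference was -0.24 ± 0.08 (edgeR adjusted p = 0.0425), a call lost without replicate 1 of the cells without IPTG or without either replicate with IPTG, and in dexamethasone it was -0.45 ± 0.08 (edgeR adjusted p = 0.000271), a call kept with any 1 library left out. Lamb1, the beta 1 chain, was at 193 and 179 CPM without IPTG and 152 and 159 CPM with IPTG in ethanol, and at 186 and 176 against 145 and 143 CPM in dexamethasone. Its log2 differences were -0.26 ± 0.06 (edgeR adjusted p = 0.00662; lost without replicate 1 of either group) and -0.33 ± 0.06 (edgeR adjusted p = 0.00049). Lama5, the most abundant alpha chain, differed by 0.09 ± 0.14 in ethanol with overlapping groups (edgeR adjusted p = 0.763), and no alpha chain was called in either treatment.

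**Figure D2:**
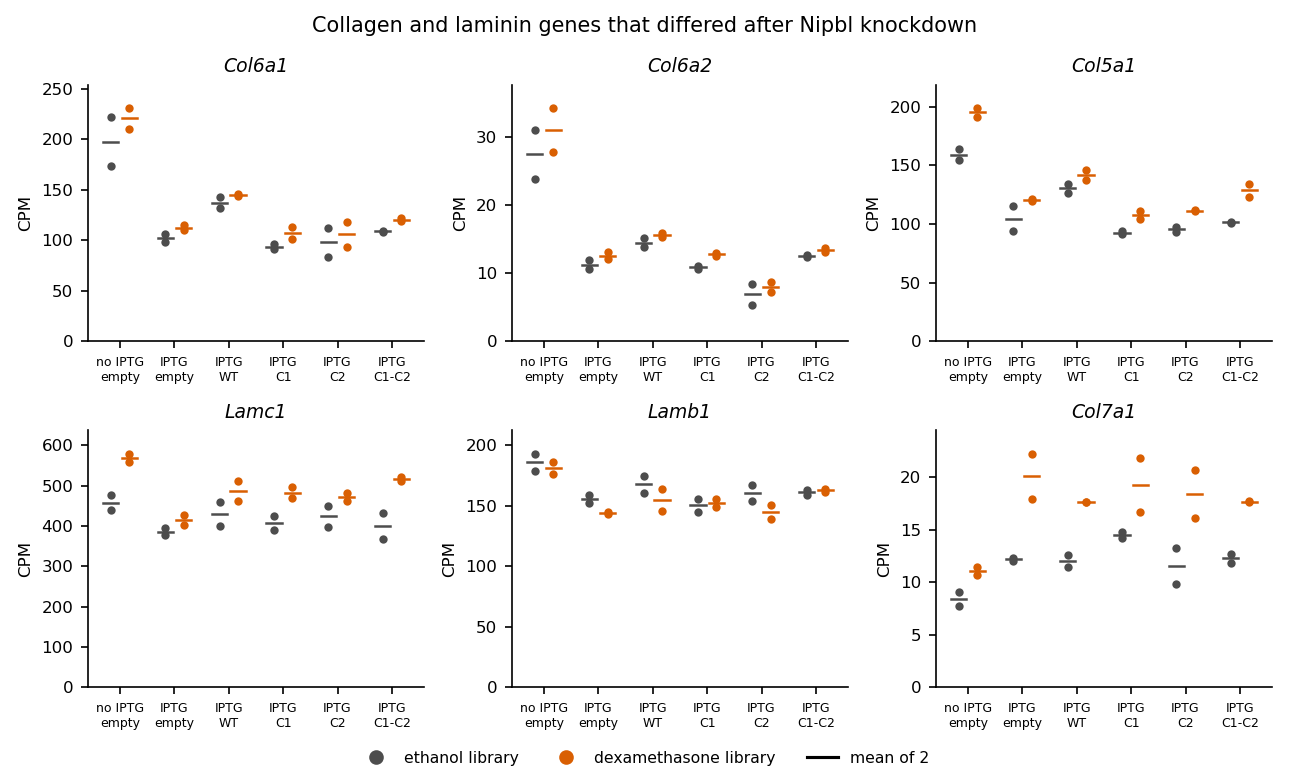
CPM of Col6a1, Col6a2, Col5a1, Lamc1, Lamb1 and Col7a1 in each library (points) with the mean of 2 libraries (line), for the 6 combinations of IPTG and construct on the x axis, in ethanol (grey) and dexamethasone (orange). Col6a1, Col6a2 and Col5a1 are highest in the 4 libraries without IPTG, and Col7a1 is lowest there within each treatment.

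Cells with wild-type NIPBL were then compared with empty-vector cells, both with IPTG, as the mean over both treatments. Of the 33 genes 6 were called (18.2%, against 8.65% of all genes), 5 higher and 1 lower (4.19% and 4.45% of all genes). The count was 2 or 3 with each of the 4 empty-vector libraries or replicate 1 of wild-type NIPBL in either treatment left out. Col5a1 was at 127 to 146 CPM in the 4 libraries with wild-type NIPBL and 93.7 to 122 CPM in the 4 with the empty vector, a log2 difference of 0.28 ± 0.05 (SE; edgeR adjusted p = 0.000458). This call was kept with any 1 of the 8 libraries left out. Col6a1 was at 132 to 146 against 98.2 to 115 CPM, a difference of 0.40 ± 0.10 (edgeR adjusted p = 0.0228) that was kept with 1 of the 8 libraries left out and lost with each of the other 7. Col6a2 was at 13.9 to 15.9 against 10.6 to 13.1 CPM and did not pass (0.34 ± 0.11, edgeR adjusted p = 0.0571). Lamc1 was higher by 0.19 ± 0.06 (edgeR adjusted p = 0.0334), Col4a2 by 0.17 ± 0.04 (edgeR adjusted p = 0.00368) and Col4a1 by 0.13 ± 0.04 (edgeR adjusted p = 0.0348). With 1 library left out the Lamc1 call was kept in 3 of 8 cases, the Col4a1 call in 1 and the Col4a2 call in 7. Col1a1 was lower, at 0.633 to 1.08 against 1.03 to 2.05 CPM (-0.90 ± 0.22, edgeR adjusted p = 0.0104), a call lost without replicate 1 of the empty vector in either treatment. Col7a1, which knockdown raised, was not called (-0.10 ± 0.10, edgeR adjusted p = 0.601). The summed basal markers were 20.1 to 22.1 CPM with wild-type NIPBL and 14.4 to 16.0 CPM with the empty vector, and their part was not tested.

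Wild-type NIPBL cells with IPTG still differed from empty-vector cells without IPTG in 8 of the 33 genes (24.2%, against 16.6% of all genes), 4 higher and 4 lower (7.23% and 9.36% of all genes). Col6a2 averaged 15.0 against 29.2 CPM over 4 libraries each (log2 difference -0.95 ± 0.10 SE, edgeR adjusted p = 3.98e-06), Col6a1 141 against 209 CPM (-0.57 ± 0.10, edgeR adjusted p = 0.00106) and Col5a1 136 against 177 CPM (-0.38 ± 0.05, edgeR adjusted p = 4.09e-06). Lamb1 was also lower (-0.19 ± 0.04, edgeR adjusted p = 0.00406). Col7a1 averaged 14.8 against 9.73 CPM (0.60 ± 0.11, edgeR adjusted p = 0.000854). Lamb3, the laminin beta 3 chain, averaged 9.86 against 7.18 CPM (0.46 ± 0.09, edgeR adjusted p = 0.000835), and Col1a2 was higher by 0.19 ± 0.05 (edgeR adjusted p = 0.0141). These calls were kept with any 1 of the 8 libraries left out, except that of Col1a2, which was lost without replicate 1 or replicate 2 of the cells without IPTG (in ethanol and in dexamethasone, respectively) or without the first replicate of wild-type NIPBL in ethanol. This comparison shares its libraries with those above.

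Among the 33 tested genes, 24 of them collagens, those called in the mutants against wild-type NIPBL were mostly collagens. Few were called against the empty vector. Against wild-type NIPBL, 9 of the 33 genes were called for C1 (27.3%, against 9.66% of all genes), 8 for C2 (24.2%, against 12.9%) and 1 for C1-C2 (3.03%, against 4.86%). The count for C1-C2 depended on the fit: it was 2 with the stricter filter or DESeq2, 3 with the GC and length trend removed, 4 with the replicate block, 5 without a filter and 7 in a fit of only the libraries compared, where 829 of all genes were called beside 823. Whether C1-C2 differed from wild-type NIPBL in fewer genes than C1 or C2 was not tested. With 1 library left out the count for C1 was 4 or 5, and that for C2 was 3 to 5 without any of the 4 wild-type libraries or replicate 2 of C2 in either treatment. Col5a1 was lower in all 3 mutants: it averaged 100.3 CPM in C1 (log2 difference -0.44 ± 0.05 SE, edgeR adjusted p = 1.46e-06), 103 CPM in C2 (-0.40 ± 0.05, edgeR adjusted p = 5.41e-06) and 115 CPM in C1-C2 (-0.25 ± 0.05, edgeR adjusted p = 0.00233), beside 136 CPM in wild-type NIPBL. Col6a1 averaged 100.3, 102 and 115 CPM in C1, C2 and C1-C2 beside 141 CPM, with differences of -0.50 ± 0.10 (edgeR adjusted p = 0.00513), -0.47 ± 0.10 (edgeR adjusted p = 0.00702) and -0.30 ± 0.10 (edgeR adjusted p = 0.101). The Col5a1 calls and the Col6a1 calls of C1 and C2 were kept with any 1 of the 8 libraries left out.

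Col6a2 was lowest in C2, at 8.44 and 5.36 CPM in ethanol and 8.73 and 7.25 CPM in dexamethasone, under each of the other 20 libraries. It differed from wild-type NIPBL by -1.01 ± 0.11 (SE; edgeR adjusted p = 1.61e-05) and from the empty vector by -0.67 ± 0.11 (edgeR adjusted p = 0.00333), and both calls were kept with any 1 library left out. In C1 it differed from wild-type NIPBL by -0.36 ± 0.11 (edgeR adjusted p = 0.0433), a call lost with each of the 8 libraries left out. Col16a1 was lower in C1 (-0.24 ± 0.04, edgeR adjusted p = 0.000472) and in C2 (-0.16 ± 0.04, edgeR adjusted p = 0.0155), a call that in C2 was lost with 3 of the 8 libraries left out in turn. The remaining lower calls against wild-type NIPBL were between -0.25 and -0.11 on the log2 scale: Col4a2, Col4a6, Col5a3 and Col18a1 in C1, and Col4a2, Col4a5, Col4a6 and Col5a3 in C2. Each of these was lost with at least 6 of the 8 libraries left out in turn.

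Against the empty vector, 2 genes were called for C2 (6.06%, against 3.87% of all genes), Col6a2 and the low Col6a4 (0.161 against 0.498 CPM, -1.48 ± 0.34, edgeR adjusted p = 0.015), which was named after its values were seen and was not called with 4 of the 8 libraries left out in turn. For C1, edgeR called 0 genes (against 1.43% of all genes), with 9 at an unadjusted p under 0.05 and 1 called with DESeq2. For C1-C2, edgeR called 0 genes (against 0.437%), with 9 at an unadjusted p under 0.05 and 2 called with DESeq2. The differences of Col6a1 from the empty vector were -0.10 ± 0.10 for C1, -0.07 ± 0.10 for C2 and 0.10 ± 0.10 for C1-C2 (edgeR adjusted p = 0.709, 0.773 and 0.756). All these comparisons share the wild-type or the empty-vector libraries.

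Dexamethasone raised the type IV genes Col4a1 and Col4a2 and the fibrillar Col27a1, and lowered Col8a1, in each of the 6 combinations of IPTG and construct. The laminin gamma 3 chain Lamc3 was also called higher in each, with calls that were less stable, as given below. Without IPTG, 11 of the 33 genes were called, 10 higher and 1 lower (33.3%, against 38.0% of all genes, 19.8% higher and 18.2% lower). With IPTG the counts were 9 with the empty vector (against 32.5%), 9 with wild-type NIPBL (against 28.5%), 11 in C1 (against 32.2%), 8 in C2 (against 32.5%) and 11 in C1-C2 (against 32.3%). These shares lie near or below those of all genes. The count in C1 was 6 without replicate 1 in ethanol and 7 without replicate 2 in dexamethasone. In all 6 states 5 genes were higher and 1 was lower, beside 9.53% and 9.22% of all genes, and 16 of the 33 were called in none. The ethanol libraries and the dexamethasone libraries carry names from separate runs of numbers and differ in depth. They also differ in a trend with GC content: genes of the highest GC quartile against those of the lowest lay at -0.28 to -0.14 (log2) in ethanol and 0.06 to 0.29 in dexamethasone, relative to the mean of all libraries. Treatment and library preparation cannot be told apart in this design, so the calls named below are also given with that trend, and the trend with transcript length, removed.

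Col4a1 rose from 1199 and 1211 CPM in ethanol to 1882 and 1859 CPM in dexamethasone without IPTG (log2 difference 0.63 ± 0.05 SE, edgeR adjusted p = 5.72e-10). Col4a2, its partner, rose from 778 and 772 to 1159 and 1185 CPM (0.60 ± 0.05, edgeR adjusted p = 1.27e-09). Over the 6 states the differences ran from 0.45 to 0.63 for Col4a1 and from 0.41 to 0.60 for Col4a2, with each dexamethasone library above each ethanol library. The other type IV genes did not move with them: Col4a5 differed by -0.19 to -0.05 and Col4a6 by -0.07 to 0.00 over the states, and neither was called in any.

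Col27a1 (chromosome 4, 63214004 to 63334991), a fibrillar collagen known from cartilage, had the largest difference among the genes of at least 1 CPM. It was at 0.303 and 0.379 CPM in ethanol and 2.31 and 2.92 CPM in dexamethasone without IPTG, which is 26 against 265 counts, 7.85 times as many per library size (95% exact binomial interval 5.24 to 12.2). The log2 difference was 2.95 ± 0.30 (SE; edgeR adjusted p = 2.2e-08) without IPTG and 1.98 to 2.65 in the 5 states with IPTG. In ethanol it was at 0.357 to 0.780 CPM in the libraries with IPTG, and no library in dexamethasone was under 1.72 CPM. The letters before its RefSeq start, outside annotated exons, lie inside the gene as positioned above, so those before that annotated start are not shown. They hold 1 GC box (capitals) and 0 copies of AGAACA on either strand:
Col27a1, chr4:63215162-63215411, plus strand, GRCm38.p6: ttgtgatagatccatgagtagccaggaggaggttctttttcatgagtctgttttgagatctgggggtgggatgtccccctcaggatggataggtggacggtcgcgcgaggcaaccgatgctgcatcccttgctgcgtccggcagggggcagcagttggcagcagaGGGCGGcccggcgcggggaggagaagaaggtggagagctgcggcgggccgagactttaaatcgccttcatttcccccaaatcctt

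Lamc3, a gamma 3 chain at low level, went from 0.957 and 0.555 to 1.47 and 1.72 CPM without IPTG (1.05 ± 0.29, edgeR adjusted p = 0.00487), and its differences over the states were 0.76 to 1.05. With 1 library left out its call was kept in 3 of 4 cases without IPTG, in 0 of 4 with the empty vector and in at most 2 of 4 in the other states. Exons of Gm13441 on the other strand overlap Lamc3 by 382 bases. Col8a1, a short-chain collagen of vessel and corneal membranes, fell from 148 and 151 to 116 and 103 CPM without IPTG (-0.45 ± 0.07, edgeR adjusted p = 6.72e-06), and by 0.39 to 0.51 on the log2 scale over the 6 states. Col7a1 was higher in the 5 states with IPTG, by 0.41 to 0.72, and was at 7.73 and 9.05 against 10.7 and 11.4 CPM without IPTG, where it was not called. With 1 library left out those calls were kept in 4 of 4 cases with the empty vector and in C2, in 3 with wild-type NIPBL, in 2 in C1-C2 and in 1 in C1. With the GC and length trend removed, the calls of Col4a1, Col4a2, Col27a1 and Col8a1 were kept in all 6 states. Lamc3 then kept its call without IPTG (0.81, edgeR adjusted p = 0.045) and lost those in the 5 states with IPTG (0.62 to 0.72, edgeR adjusted p = 0.071 to 0.149), and Col7a1 kept those with the empty vector (0.59, edgeR adjusted p = 0.0165) and in C2 (0.54, edgeR adjusted p = 0.0272).

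Of the smaller increases, some were called with that trend removed and others were not. Col5a1 was called higher in 5 states, by 0.21 to 0.35, and in 0 of them with the trend removed (0.04 to 0.16, edgeR adjusted p = 0.0837 to 0.721). Without IPTG, Lamc1 was called at 0.31 ± 0.08 (SE; edgeR adjusted p = 0.00299), Lamb2 at 0.25 ± 0.10 (edgeR adjusted p = 0.0496) and Col18a1 at 0.21 ± 0.06 (edgeR adjusted p = 0.00354), and with the trend removed these were 0.15 (edgeR adjusted p = 0.117), 0.00 (edgeR adjusted p = 0.999) and -0.06 (edgeR adjusted p = 0.486). Lamc1 was also called in C1 (0.25 ± 0.08, edgeR adjusted p = 0.0193) and in C1-C2 (0.37 ± 0.08, edgeR adjusted p = 0.000893). With the trend removed its call was lost in C1 (0.09, edgeR adjusted p = 0.376) and kept in C1-C2 (0.23, edgeR adjusted p = 0.0143). The Lamb2 call was also lost with any 1 library left out and the Col18a1 call without replicate 1 in ethanol. Lama5 and Col6a3 were called in C1-C2 (0.54 ± 0.14, edgeR adjusted p = 0.00788, and 0.58 ± 0.17, edgeR adjusted p = 0.017). With the trend removed the Lama5 call was kept (0.32, edgeR adjusted p = 0.0163) and the Col6a3 call was lost (0.40, edgeR adjusted p = 0.0569). Without the ethanol library whose labels disagree, 8 genes were called in C1-C2, and Col6a3 (0.44, edgeR adjusted p = 0.157), Lama5 (0.41, edgeR adjusted p = 0.0946) and Lamc3 (0.77, edgeR adjusted p = 0.152) were not. Lama1, named after its values were seen, had 16 counts in dexamethasone and 2 in ethanol without IPTG (ratio 6.16, 95% exact binomial interval 1.45 to 55.2), a call lost with 3 of the 4 libraries left out in turn and with the trend removed (2.33, edgeR adjusted p = 0.0882). Neither type VI short chain was called in any state, with Col6a1 differing by 0.08 to 0.20 and Col6a2 by 0.10 to 0.24. Col16a1 was called lower with wild-type NIPBL alone, at 134 and 139 CPM in ethanol and 117 and 120 CPM in dexamethasone (log2 difference -0.21). That call was kept with the trend removed and lost without replicate 2 in ethanol or replicate 1 in dexamethasone. Its differences over the 6 states ran from -0.21 to -0.05.

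**Figure D3:**
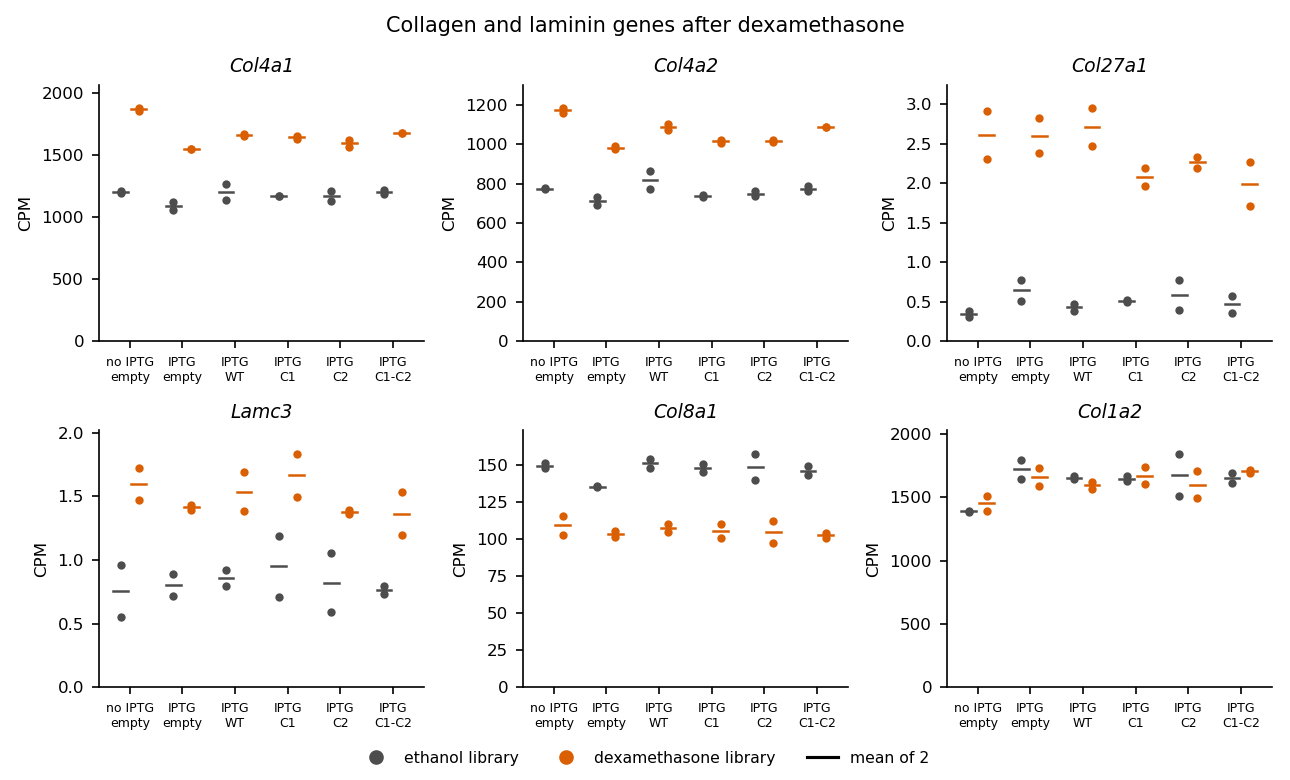
CPM of Col4a1, Col4a2, Col27a1, Lamc3, Col8a1 and Col1a2 in each library (points) with the mean of 2 libraries (line), for the 6 combinations of IPTG and construct, in ethanol (grey) and dexamethasone (orange). Col4a1, Col4a2 and Col27a1 are higher and Col8a1 is lower in dexamethasone in every combination, and Col1a2 was called in none.

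Whether knockdown changed the response to the hormone was tested as the response of empty-vector cells with IPTG minus that without IPTG. No collagen or laminin gene was called with edgeR (0 of 33, against 0.171% of all genes), 1 was at an unadjusted p under 0.05 and 0 were called with DESeq2. The difference was -0.92 ± 0.43 (log2, SE; edgeR adjusted p = 0.969) for Col27a1, -0.21 ± 0.11 for Lamc1, -0.13 ± 0.07 for Col4a2 and 0.32 ± 0.22 for Col7a1 (edgeR adjusted p = 1 for each of the latter 3). The calls that passed in 1 treatment only, such as Col4a1, Col4a2, Col16a1 and Col18a1 after knockdown, are therefore not shown to differ between treatments.

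Genes that process, bind or sense these proteins were taken from 3 lists of 35, 20 and 18 genes, which were put together with results of these data known. Of the 28 tested genes for collagen synthesis, 5 rose and 2 fell after knockdown in ethanol, and 4 rose and 4 fell in dexamethasone, where 13.4% and 16.9% of all genes were called. The ethanol count of 7 was 4 without replicate 1 of the cells without IPTG or replicate 2 of those with it, and the dexamethasone count of 8 was 3 to 5 with any 1 of the 4 libraries left out. Adamts2, the protease that removes the amino propeptide of fibrillar procollagens, fell 1.53-fold and 1.69-fold (edgeR adjusted p = 0.000235 and 6.78e-06), while Bmp1, the carboxy propeptide protease, rose 1.28-fold and 1.22-fold (edgeR adjusted p = 1.33e-05 and 0.000107). Adamts14 rose 1.57-fold and 1.31-fold, the procollagen chaperone Fkbp14 1.41-fold and 1.36-fold and the enhancer of Bmp1 activity Pcolce2 1.53-fold and 1.48-fold. The Pcolce2 calls were lost with 3 of the 4 libraries left out in turn in ethanol and with each of the 4 in dexamethasone, and those of Fkbp14 with 1 of the 4 in each treatment. Of the 10 tested basement membrane and interstitial partners, 3 rose and 3 fell in ethanol, and 3 rose and 2 fell in dexamethasone, beside the same shares of all genes. The latter count was 3 without either replicate with IPTG or replicate 2 without it. Nid1, which links laminin to type IV collagen, rose 1.39-fold and 1.33-fold (edgeR adjusted p = 0.00026 and 0.000604). Ntn4, a netrin that binds laminin, rose 4.22-fold and 3.37-fold (edgeR adjusted p = 0.000146 and 0.000646). Its level was low, at 1.21 CPM with IPTG against 0.283 without in ethanol and 0.807 against 0.232 CPM in dexamethasone. Thbs2, also low (0.747 against 2.90 CPM in ethanol), had log2 differences of -1.96 and -1.93 (edgeR adjusted p = 1.55e-06 and 2.01e-06). Thbs1, a matricellular protein, fell by 0.97 and 0.77 on the log2 scale, a call lost in dexamethasone with 3 of the 4 libraries left out in turn. Of the 14 tested receptors, 1 rose and 3 fell in ethanol, and 2 rose and 6 fell in dexamethasone, where the count of 8 was 5 without replicate 1 without IPTG and 3 without replicate 2 with IPTG. The collagen receptor kinase Ddr1 rose 1.30-fold and 1.21-fold, and Itga6 and Itga3, alpha subunits of laminin-binding integrins, fell 1.22-fold in ethanol each and 1.21-fold and 1.31-fold in dexamethasone. The Itga3 call in ethanol was lost without replicate 1 with IPTG. The syndecan Sdc1 fell 1.25-fold and 1.40-fold (edgeR adjusted p = 0.00276 and 1.99e-05). Another syndecan, Sdc4, was called in dexamethasone only and fell 1.51-fold there (edgeR adjusted p = 2.74e-06). In dexamethasone the calls of Ddr1, Itga6 and Adamts14 were lost without replicate 2 with IPTG. All calls named here after knockdown were kept with the GC and length trend removed.

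Dexamethasone without IPTG raised 13 and lowered 2 of the 28 synthesis genes, raised 1 and lowered 2 of the 10 partners, and raised 9 and lowered 2 of the 14 receptors, beside 38.0% of all genes called. With the GC and length trend removed, 3 synthesis genes were called higher and 3 lower, 0 partners higher and 2 lower, and 3 receptors higher and 1 lower, beside 22.3% of all genes. The calls of Plod1 and Plod3, lysyl hydroxylases of procollagen, and of Agrn, the heparan sulfate proteoglycan agrin, were among those lost (log2 differences of 0.26, 0.28 and 0.24, and of 0.09, 0.03 and 0.01 with the trend removed; edgeR adjusted p = 0.204, 0.697 and 0.91). The calls named next were kept. Loxl3, an enzyme that cross-links collagen, rose 2.66-fold (edgeR adjusted p = 5.73e-06) and Adamts14 2.16-fold (edgeR adjusted p = 1.27e-09). The syndecan Sdc4 rose 2.88-fold (edgeR adjusted p = 6.73e-14) and the collagen-binding integrin subunit Itga10 3.01-fold (edgeR adjusted p = 9.9e-06). Thbs1 fell 2.58-fold (edgeR adjusted p = 4.31e-05). In wild-type NIPBL against empty-vector cells 0 synthesis genes rose and 4 fell, beside 8.65% of all genes called, among them Bmp1 (1.16-fold, edgeR adjusted p = 0.000157) and Adamts14 (1.31-fold, edgeR adjusted p = 0.00042).

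**Figure D4:**
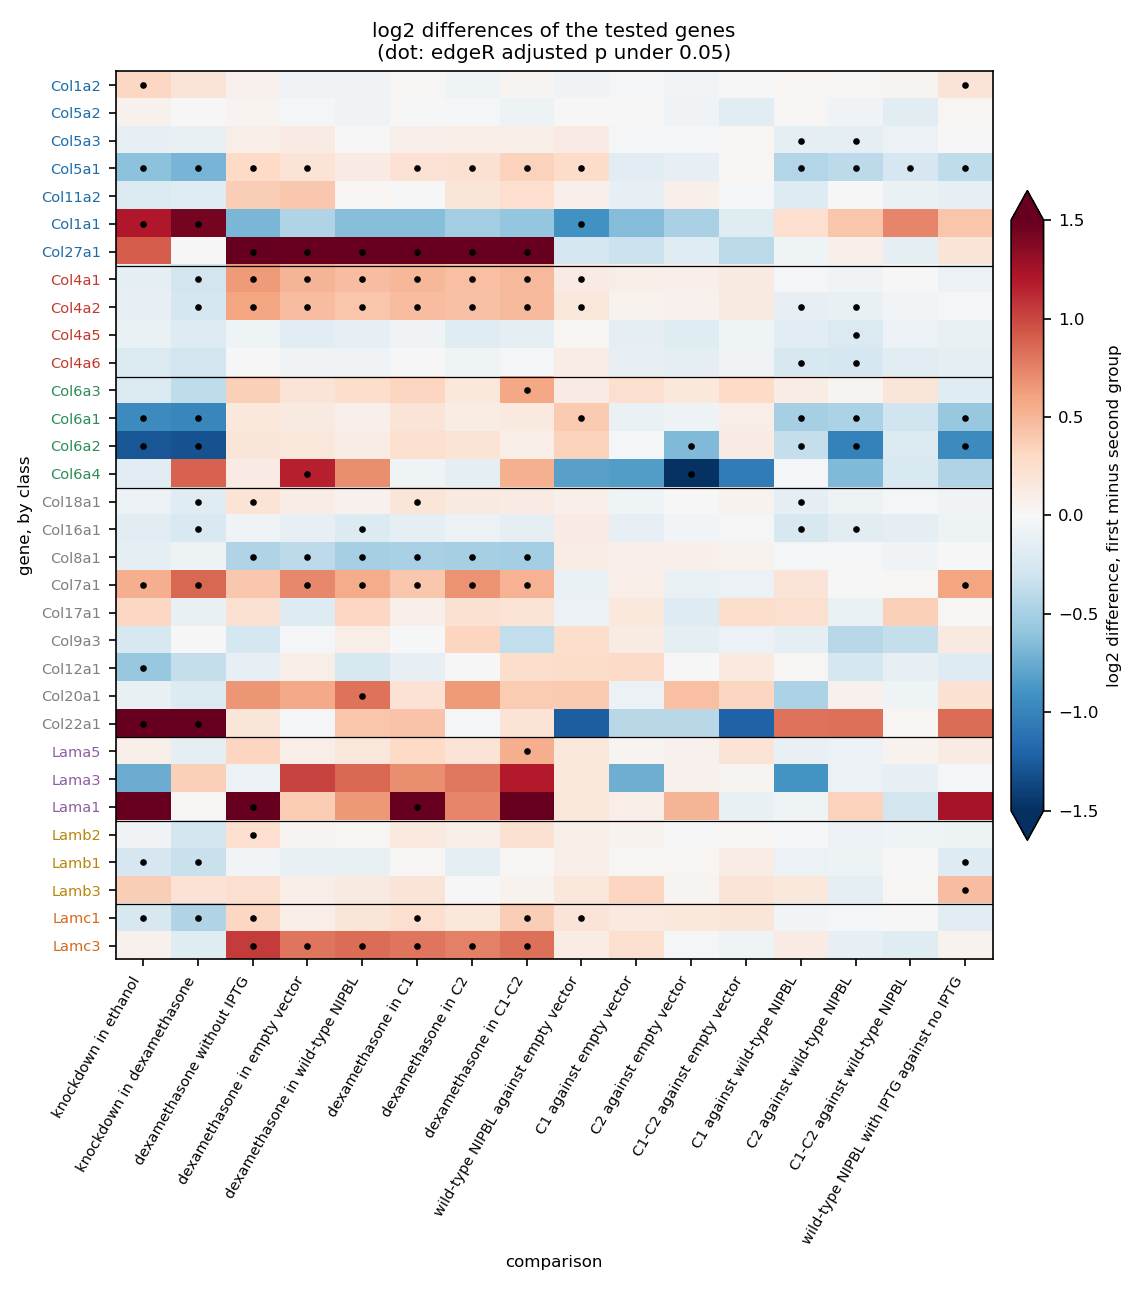
log2 differences (first minus second group, colour, limits at -1.5 and 1.5) of tested genes, grouped by class, in 16 comparisons, with a dot where the edgeR adjusted p was under 0.05. The columns share libraries: the knockdown columns show Col6a1, Col6a2 and Col5a1 lower and Col7a1 higher, and the 6 dexamethasone columns show Col4a1, Col4a2, Col27a1 and Lamc3 higher and Col8a1 lower. The Lamc3 calls with IPTG were lost with the GC and length trend removed.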

How the data were processed

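RNA from 24 libraries of 3134 cells was measured by total RNA sequencing after depletion of ribosomal RNA. The authors deposited raw read counts per gene, and the submitters' processing notes name bcl2fastq 2.20, cutadapt 1.18, STAR 2.7.0f, Subread 2.0.3 with featureCounts, and the build mm10. The annotation, the strand setting and the treatment of reads with several positions are not given in the sources used here.

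Counts were analysed in R 4.3.3 with edgeR 4.0.16 (TMM factors, filterByExpr, robust quasi-likelihood fit with 1 mean for each of the 12 groups, 12 residual degrees of freedom, median biological coefficient of variation 6.43%). The filter kept 16934 genes and removed 38407. Benjamini-Hochberg adjustment ran over all genes tested, with an adjusted p under 0.05 as the threshold for a call. Standard errors were derived from the fold change and its F value. There were 17 comparisons, and those between constructs average both treatments. RPKM used the exon length in the count table. Exact binomial intervals have a confidence of 95%. The procedure was tested on simulated data.

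Named genes are those called after knockdown with a mean of at least 1 CPM and groups that do not overlap (up to 10 in each direction), up to 6 in each direction in other comparisons, the 10 of highest RPKM, chains that share a trimer with these, and up to 4 in each direction from each companion list. The genes described, the companion lists and the marker lists were chosen with earlier results of these data known. Alternatives were RLE factors, no filter on low counts, a stricter filter (1 CPM in 4 libraries), a replicate block, removal of trends with GC content and length, leaving out the 2 most abundant genes, DESeq2 1.42.0, a fit of only the libraries compared, and leaving out each library in turn. The removal of the C1-C2 library in ethanol whose labels disagree is among the last. A crossed replicate block was added after the data were seen. Among the tested genes 1 enters the counts of genes called and is not reported here. Gene positions came from GENCODE vM21 and promoter sequences from RefSeq (GRCm38.p6).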

Additional observations from a re-analysis of the deposited data

How the results depend on the processing

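Of the 117 calls of collagen and laminin genes, 63 were kept under every alternative run and with each library left out. The calls kept were 115 of 117 with RLE factors, 110 of 117 without a filter, 111 of 111 with the stricter filter, 116 of 117 without the 2 most abundant genes, 105 of 114 with DESeq2 and 99 of 114 in a fit of only the libraries compared. With the GC and length trend removed 93 of 117 were kept, and the increase of Col18a1 with dexamethasone without IPTG reversed to -0.0558 (log2). The cause was not tested.

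Counts of genes called that moved by over 1.5 times are as follows. With the GC and length trend removed, 6 genes were called with dexamethasone in C1, 10 in wild-type NIPBL against the empty vector, 1 in C1 against the empty vector and 3 in C1-C2 against wild-type NIPBL, and with dexamethasone without IPTG 6 genes of collagen synthesis in place of 15 and 4 receptors in place of 11. Without a filter, the counts against the empty vector were 4 for C1, 4 for C2 and 2 for C1-C2, and 5 for C1-C2 against wild-type NIPBL. With the stricter filter, 1 gene was called in C2 against the empty vector and 2 in C1-C2 against wild-type NIPBL. With DESeq2 the counts against the empty vector were 1 for C1, 1 for C2 and 2 for C1-C2, and 2 for C1-C2 against wild-type NIPBL. In a fit of only the libraries compared they were 2 for C1 and 3 for C1-C2 against the empty vector, and 3 for C2 and 7 for C1-C2 against wild-type NIPBL.

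The replicate block kept all 117 calls and gave 2 genes for C1 and 2 for C1-C2 against the empty vector and 4 for C1-C2 against wild-type NIPBL, and 11 synthesis genes for knockdown in ethanol. The deviations of libraries with the same number correlated at -0.318 to 0.548 over 66 pairs of groups, so the numbers were not taken to pair the samples, and the crossed block in dexamethasone without IPTG kept 11 of 11 calls.

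With 1 library left out, the counts ran from 5 to 9 for knockdown in ethanol, 9 to 11 for knockdown in dexamethasone, 6 to 9 for dexamethasone in C1, 2 to 8 for wild-type NIPBL against the empty vector, 0 to 1 for C1 and 1 to 4 for C2 against the empty vector, 4 to 5 for C1 and 3 to 7 for C2 against wild-type NIPBL. With 2 libraries a group, small differences of genes under 1 CPM could not be resolved at this depth.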
